A study of Homo sapiens with 13 samples.

Results

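The genes described here encode the proteins of the cytosolic ribosome: the large 60S subunit and the small 40S subunit. Members were chosen by symbol, as every probe of the normalized array table named RPL or RPS with a number, RPLP1, RPLP2 or FAU, without pseudogenes and without the RPS6 kinases. This gave 73 of the 8380 genes measured (46 of the 60S and 27 of the 40S subunit), read by 117 of 12007 probes. A further 15 genes that fit the symbol rule, among them RPLP0, RPSA and RPL10, had no named probe and were not analysed here. The rule used symbols only.

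The study asked which mRNAs a miRNA captures in cells. Cells of the line HEK293T, derived from human embryonic kidney, received 200 pmol of a synthetic miRNA duplex that carries biotin by transfection. They were harvested after 24 h, and the RNA held on streptavidin beads was hybridized to Illumina HT-12 bead arrays. The 13 libraries were all pull-downs, in 5 groups: miR-17-5p (n = 3), miR-17-5p-iso (n = 3), miR-23b (n = 2), miR-27a (n = 3) and miR-182-iso (n = 2). An isomiR ("iso") is a form of a miRNA with a shifted end. Mock-transfected controls and total RNA were not analysed here, so a signal says how much of an mRNA was in the captured RNA and does not separate capture from the amount of that mRNA in the cells. Each duplex was therefore set against the duplexes unrelated to it, with families weighted equally and the paired forms of miR-17-5p counted as 1 family, left out of each other's comparator. These comparisons share libraries, since each duplex is part of the comparator of the unrelated ones. Nothing states that replicates were separate cultures, so the p-values measure the spread between these libraries, which may be technical.

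Ribosomal proteins are made in equal numbers for assembly on ribosomal RNA in the nucleolus, and most of them are needed for growth. In vertebrates their mRNAs start with a C followed by a run of pyrimidines, the 5′ terminal oligopyrimidine (TOP) motif, through which mTOR signaling and LARP1 set their translation together. They are among the most abundant mRNAs of a dividing cell. A miRNA pairs with many of its target mRNAs through its seed, bases 2 to 8 of the guide strand.

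The guide strands are shown because they are what differs between the groups; capitals mark the seed, and the RefSeq position of the mature miRNA (GRCh38.p14) is given after them.
miR-17-5p: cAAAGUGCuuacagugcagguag
miR-17-5p-iso: uCAAAGUGcuuacagugcaggua
miR-23b: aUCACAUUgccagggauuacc
miR-27a: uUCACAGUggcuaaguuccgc
miR-182-iso: uGGCAAUGguagaacucacacu
The isoform of miR-17-5p (chr13:91350618-91350640, + strand) began 1 base before the RefSeq form, so its seed was shifted by 1 base. miR-182-iso began 2 bases after the start of miR-182-5p (chr7:129770447-129770470, − strand). The seeds of miR-27a (chr19:13836447-13836467, − strand) and miR-23b (chr9:95085265-95085287, + strand) were equal at 6 of 7 positions, whereas other pairs of groups were equal at 0 to 3. miR-27a and miR-23b still counted as unrelated here, so each is part of the comparator of the other. A difference that they share is therefore reduced in both comparisons.

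Values are log2-scale signals after a variance-stabilizing transformation, which compresses dim probes, and ran from 7.42 to 15.501 in the whole table, with library medians of 8.53 to 8.60. Pearson's r across all probes was 0.941 to 0.984 for the 11 pairs of libraries within a group and 0.797 to 0.973 for the 67 pairs between groups. The 2 miR-182-iso libraries joined the others last in a clustering of all libraries, with r of 0.797 to 0.939 to them. Arrays of more than 1 version were used in the study, but no source used here says which library was on which, so the part of the array version in any difference was not tested. Of 7 neuronal and renal progenitor genes fixed as HEK293T markers 3 were measured, and NEFL (7.56 to 8.06), NEFM (7.79 to 9.01) and INA (7.87 to 8.64) lay near the lower end of the scale. The one measured marker of other cell types, COL1A1, was at 7.48 to 7.59. A gene was represented by its probe with the highest mean signal, a difference is between group means on this log2 scale, and a call is an adjusted p under 0.05 (limma, Benjamini-Hochberg over all probes).

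The median ribosomal protein mRNA was lower in the miR-27a pull-downs and higher in the miR-182-iso pull-downs than with unrelated duplexes. Its difference was under 0.1 in size in the other 3 groups. Across the 73 members the median difference was −0.39 with miR-27a, 0.33 with miR-182-iso, 0.04 with miR-17-5p, 0.05 with miR-17-5p-iso and −0.07 with miR-23b, while over all genes it was −0.04 to −0.01 in the same comparisons. The medians of both subunits had the same sign. With miR-27a the median was −0.32 for 60S and −0.62 for 40S members, and with miR-182-iso it was 0.31 for 60S and 0.58 for 40S members.

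Single libraries carried unequal parts of this. Taken as the deviation of each gene from the mean of the 5 group means, the median over the 73 members was −0.60, −0.17 and −0.10 in the 3 miR-27a libraries, and 63 of 73 members were below 0 in replicate 1. In the miR-182-iso libraries it was 0.16 and 0.26. The miR-17-5p-iso libraries were at −0.12, 0.40 and −0.12, with 62 of 73 members above 0 in replicate 2. The miR-17-5p libraries were at 0.03, 0.16 and −0.05, and the miR-23b libraries at −0.13 and 0.09. The median of the 40S members exceeded that of the 60S members by 0.26 and 0.12 in the miR-182-iso libraries and fell short of it in miR-27a replicate 3 (−0.26), against −0.13 to 0.08 in the other 10 libraries.

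**Figure D1:**
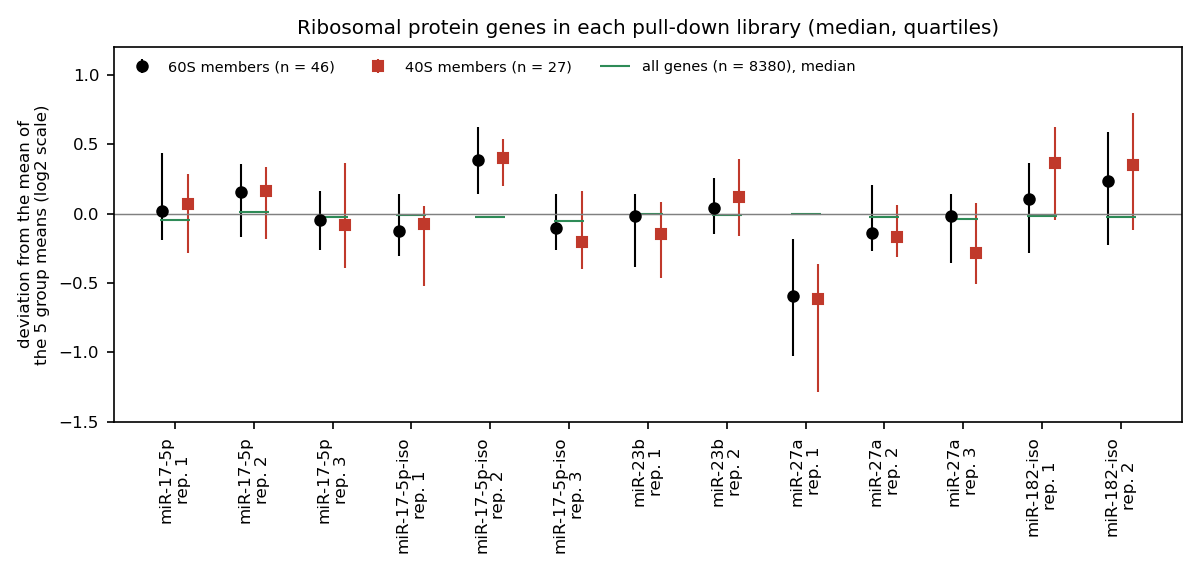
Median deviation of the 60S and of the 40S members from the mean of the 5 group means (log2 scale, vertical axis) in each of the 13 libraries, with lines to the quartiles, beside the median of all genes. miR-27a replicate 1 lies lowest with −0.60 over all 73 members and miR-17-5p-iso replicate 2 highest with 0.40, while all genes stay near 0.

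In the miR-27a pull-downs 22 members were called lower and 1 higher than with unrelated duplexes. Of all genes 16.8% were called lower and 17.1% higher, so the 30.1% of members called lower stood above the background and the 1 higher call below it. Most members are brighter than the median probe. In a fit of brighter probes only, 20.5% of genes were called lower and 22.4% higher. In both directions together, 31.5% of members and 33.9% of all genes were called. The 22 were 12 of 46 60S and 10 of 27 40S members, and 56 of 73 members had a negative difference. The 6 largest falls were in RPS26, RPL29, FAU, RPL19, RPL36AL and RPL26L1. The other 16, with differences of −0.94 to −0.39, were RPS3, RPS9, RPS14, RPS15, RPS18, RPS21, RPS27, RPS29, RPL3, RPL4, RPL6, RPL10A, RPL18, RPL22, RPL34 and RPL36A.

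FAU encodes the 40S protein RPS30 as a fusion with a ubiquitin-like domain that is cut off. Its signal was 10.79, 11.36 and 10.91 with miR-27a, against 11.48, 12.24 and 11.49 with miR-17-5p, 11.48, 12.45 and 11.59 with miR-17-5p-iso, 12.35 and 13.29 with miR-23b and 12.01 and 12.25 with miR-182-iso. All 3 miR-27a libraries lay below the other 10, and the difference was −1.22 ± 0.28 (SE; adjusted p = 0.00969). RPL26L1, a paralog of the exit tunnel protein RPL26, had 8.75, 9.63 and 9.43 with miR-27a, against 10.28, 9.95 and 9.88 with miR-17-5p, 10.76, 11.03 and 11.15 with miR-17-5p-iso, 10.09 and 10.29 with miR-23b and 10.25 and 10.36 with miR-182-iso. Here too the miR-27a libraries were the lowest 3 of the 13 (−1.07 ± 0.18, adjusted p = 0.00273).

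Most other calls were lost without the miR-182-iso libraries in the comparator, while the differences of some members changed little. Without both libraries, 4 members were called lower with miR-27a and 0 higher, against 7.61% of all genes called lower and 7.77% higher. The median difference of the members was −0.38, against −0.39 with all libraries. The 4 were FAU (−1.28, adjusted p = 0.0261), RPL26L1 (−1.08, adjusted p = 0.0105), RPS29 and RPL18, a 60S protein named here for this count after its values were seen. The difference of RPS26 was then −0.78 (adjusted p = 0.174), against −1.93 with all libraries, that of RPL29 −0.62 (adjusted p = 0.16), against −1.27, and that of RPL19 −0.61 (adjusted p = 0.362), against −1.20. RPS27 stayed at −0.73 (adjusted p = 0.0917), against −0.74, and RPL36AL was at −0.82 (adjusted p = 0.136), against −1.12. Without miR-27a replicate 1, 8 members were called lower and 3 higher, with a median of −0.25. Of all genes 10.2% were then called lower and 10.1% higher, so the share of members called lower was near the background.

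RPL5, which carries 5S ribosomal RNA into the 60S subunit together with RPL11 and can bind MDM2, was the 1 member called higher with miR-27a by its brightest probe. It had 13.62, 13.70 and 13.71 with miR-27a, against 13.07, 13.51 and 13.17 with miR-17-5p, 13.17, 13.37 and 13.29 with miR-17-5p-iso, 13.41 and 13.42 with miR-23b and 12.90 and 12.95 with miR-182-iso. The miR-27a libraries were the highest 3 and the miR-182-iso libraries the lowest 2 of the 13. The difference was 0.48 ± 0.09 with miR-27a (adjusted p = 0.00451) and −0.53 ± 0.10 with miR-182-iso (adjusted p = 0.00412). Without the miR-182-iso libraries it was 0.34 with miR-27a (adjusted p = 0.0517). Probes other than the brightest were also called higher with miR-27a, 1 of RPL9 (below) and 1 of RPL37A among them. The RPL37A probe was at 0.85 (adjusted p = 0.0161) and the brightest RPL37A probe at −0.33 (adjusted p = 0.362).

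In the miR-182-iso pull-downs 17 members were called higher and 5 lower. Of all genes 16.9% were called higher and 17.3% lower, against 23.3% of members called higher. In the fit of brighter probes only, 17.2% of genes were called higher and 24% lower. In both directions together, 30.1% of members and 34.2% of all genes were called. The 17 were 10 of 46 60S and 7 of 27 40S members, and 47 of 73 members had a positive difference. The 6 largest rises were in RPS26, RPL29, RPL19, RPS7, RPS3 and RPL36AL, and the other 11 rose by 0.42 to 1.03 (RPL3, RPL6, RPL8, RPL17, RPL22, RPL35, RPL36A, RPS13, RPS14, RPS15 and RPS18).

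RPS26 lies where mRNA leaves the 40S subunit and touches the bases upstream of the start codon. Its signal was 13.43 and 14.12 with miR-182-iso, against 9.35, 11.06 and 10.63 with miR-17-5p, 9.77, 10.52 and 10.29 with miR-17-5p-iso, 10.52 and 10.30 with miR-23b and 9.22, 9.99 and 9.46 with miR-27a. Both miR-182-iso libraries stood over 2 log2 units above the other 11, by 3.69 ± 0.39 in the fit (adjusted p = 0.000234), the widest difference of any member from unrelated duplexes. A second RPS26 probe rose by 1.13 (adjusted p = 0.000307).

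RPL29, a small basic protein of the 60S subunit, had 10.43 and 10.90 with miR-182-iso, against 9.26, 8.63 and 9.40 with miR-17-5p, 8.32, 9.23 and 8.45 with miR-17-5p-iso, 8.44 and 8.67 with miR-23b and 7.57, 8.39 and 8.34 with miR-27a. RPS7, which is needed for 18S rRNA maturation and can bind MDM2, had 10.21 and 10.91 with miR-182-iso, against 8.19 to 9.48 in the other 11 libraries. Both genes were higher in the 2 miR-182-iso libraries than in any other library, RPL29 by 2.15 ± 0.30 (adjusted p = 0.000785) and RPS7 by 1.97 ± 0.32 (adjusted p = 0.00172). Their second probes differed by 2.13 ± 0.32 (RPL29) and 2.25 ± 0.32 (RPS7).

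RPS3, a protein of the 40S head at the entry of the mRNA channel, had 14.44 and 14.34 with miR-182-iso, against 13.65, 13.27 and 13.42 with miR-17-5p, 12.69, 12.92 and 12.90 with miR-17-5p-iso, 12.53 and 12.43 with miR-23b and 12.05, 12.76 and 12.39 with miR-27a. It was the most precisely measured of these 6 rises (1.71 ± 0.16, adjusted p = 0.000112). RPL19, which reaches across to the 40S subunit in an intersubunit bridge, had 14.73 and 14.46 with miR-182-iso, against 11.19 to 13.83 elsewhere, a difference of 1.98 ± 0.43 (adjusted p = 0.00726) that was not called when either miR-182-iso library was left out. RPL36AL and RPL36A, which encode almost the same protein next to the E site, differed by 1.17 ± 0.37 and 0.57 ± 0.18 (adjusted p = 0.0337 and 0.0329).

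**Figure D2:**
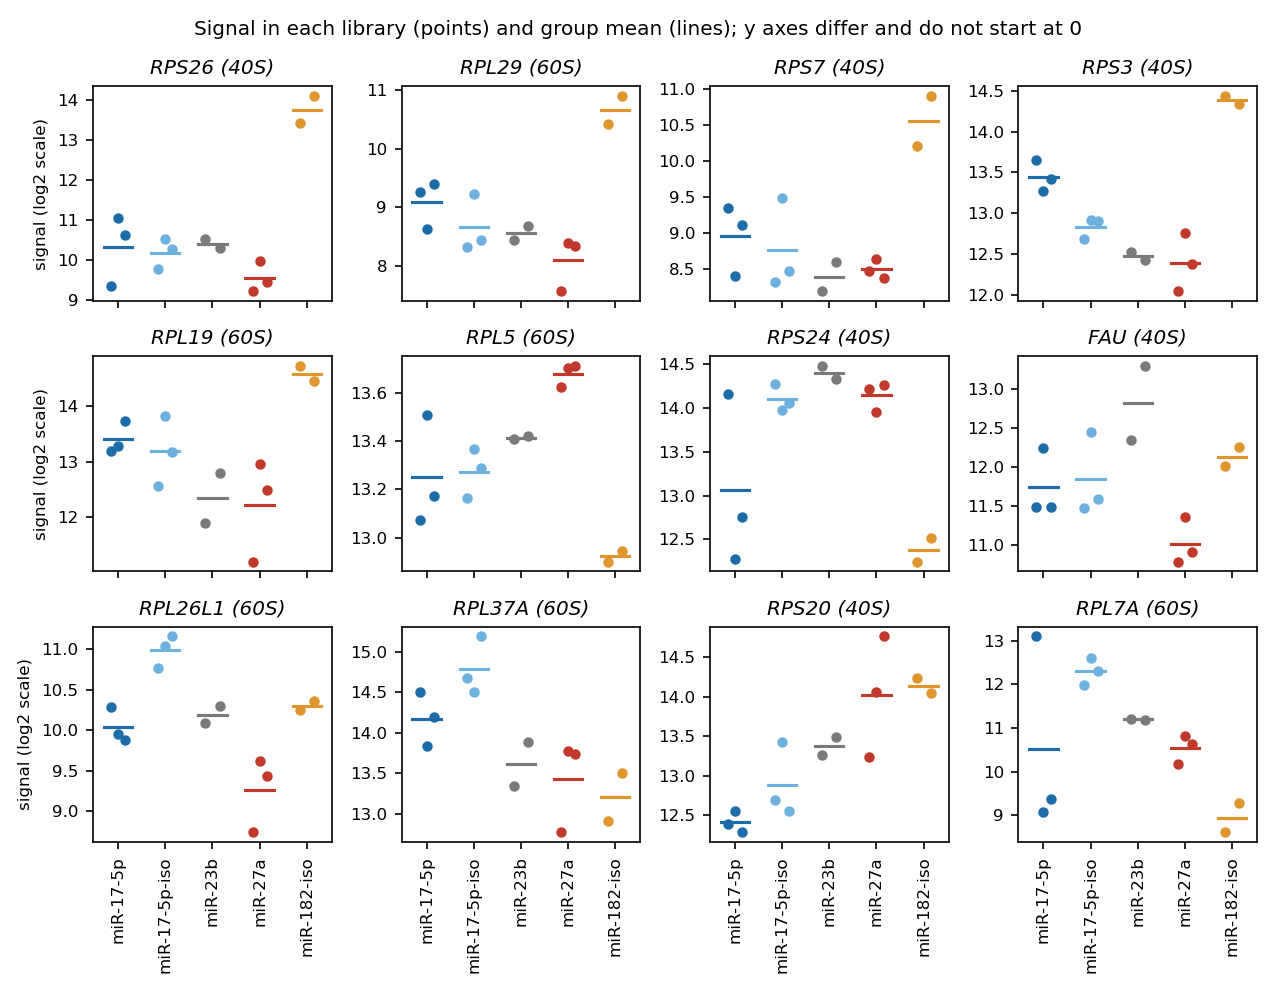
Signal of 12 ribosomal protein genes (log2 scale, vertical axis) in each library, grouped by pull-down, with points for libraries and lines for group means; the vertical axes differ and do not start at 0. RPS26, RPL29, RPS7, RPS3 and RPL19 are highest in both miR-182-iso libraries, FAU and RPL26L1 are lowest in the miR-27a libraries, and RPL7A is spread within the miR-17-5p group.

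The 5 members called lower with miR-182-iso by their brightest probe were RPS24, RPS3A, RPL13, RPL23 and RPL5. RPS24, a 40S body protein mutated in Diamond-Blackfan anaemia, had 12.25 and 12.51 with miR-182-iso, against 14.16, 12.27 and 12.75 with miR-17-5p and 13.96 to 14.48 in the 8 libraries of miR-17-5p-iso, miR-23b and miR-27a. The miR-182-iso values overlapped those of miR-17-5p replicate 2 only (−1.67 ± 0.36, adjusted p = 0.0066). A second RPS24 probe differed by 0.23 ± 0.34 (adjusted p = 0.636), and the call was lost without either miR-182-iso library. RPS3A, of the 40S platform, had 12.564 and 13.003 with miR-182-iso, against 12.82 to 14.25 in the other 11 libraries (−1.01 ± 0.21, adjusted p = 0.00635), and overlapped miR-17-5p replicate 3. Its other probes differed by −1.02 (adjusted p = 0.0136) and 0.30 (adjusted p = 0.405). RPL23 (−0.67 ± 0.22, adjusted p = 0.0408), which holds part of the eIF6 binding site, and RPL13 (−0.70 ± 0.24, adjusted p = 0.0479) were close to the threshold, and each lost its call under several settings. A second RPL13 probe differed by 0.45 (adjusted p = 0.248). Probes other than the brightest were also called lower, among them 1 of RPS27 (−1.75, adjusted p = 0.000848) and 1 of RPL36 (−0.50, adjusted p = 0.0293). The brightest probes of these genes were at 0.28 and 0.70 and not called.

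The number of calls rested on having both miR-182-iso libraries. Without miR-182-iso replicate 1 there were 7 called members (6 higher), and without replicate 2 there were 5 (4 higher), with medians over the members of 0.37 and 0.26. Of all genes 11.7% were called higher without replicate 1 and 5.7% without replicate 2, so at neither setting was the share of members called higher above the background. RPS26, RPL29, RPS7 and RPS3 were called under every alternative that was run.

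Set directly against each other, miR-27a and miR-182-iso differed in 31 members, 27 lower and 4 higher with miR-27a (42.5% of members in all). Of all genes 20.2% were called lower and 20.2% higher, or 40.4% in all. With brighter probes only, 21.4% of genes were called lower and 26.4% higher, or 47.9% in all. The 27 were 15 60S and 12 40S members, and the median difference was −0.58 over all members, −0.48 for 60S and −0.77 for 40S. The widest were RPS26 (−4.21 ± 0.45, adjusted p = 0.000228), RPL29 (−2.57 ± 0.34, adjusted p = 0.00056), RPL19 (−2.38 ± 0.51, adjusted p = 0.00501), RPS7 (−2.06 ± 0.37, adjusted p = 0.00229), RPS3 (−1.99 ± 0.19, adjusted p = 0.000122) and RPL36AL (−1.72 ± 0.43, adjusted p = 0.0106). The 4 higher with miR-27a were RPS24 (1.77 ± 0.42), RPS3A (1.02 ± 0.25), RPL5 (0.76 ± 0.12) and RPL37 (0.35 ± 0.10). Without miR-182-iso replicate 2 the count was 10 (7 lower), with 9.53% of all genes called lower, near the members' share. Without replicate 1 it was 17 (16 lower), with 15.4% of all genes called lower.

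**Figure D3:**
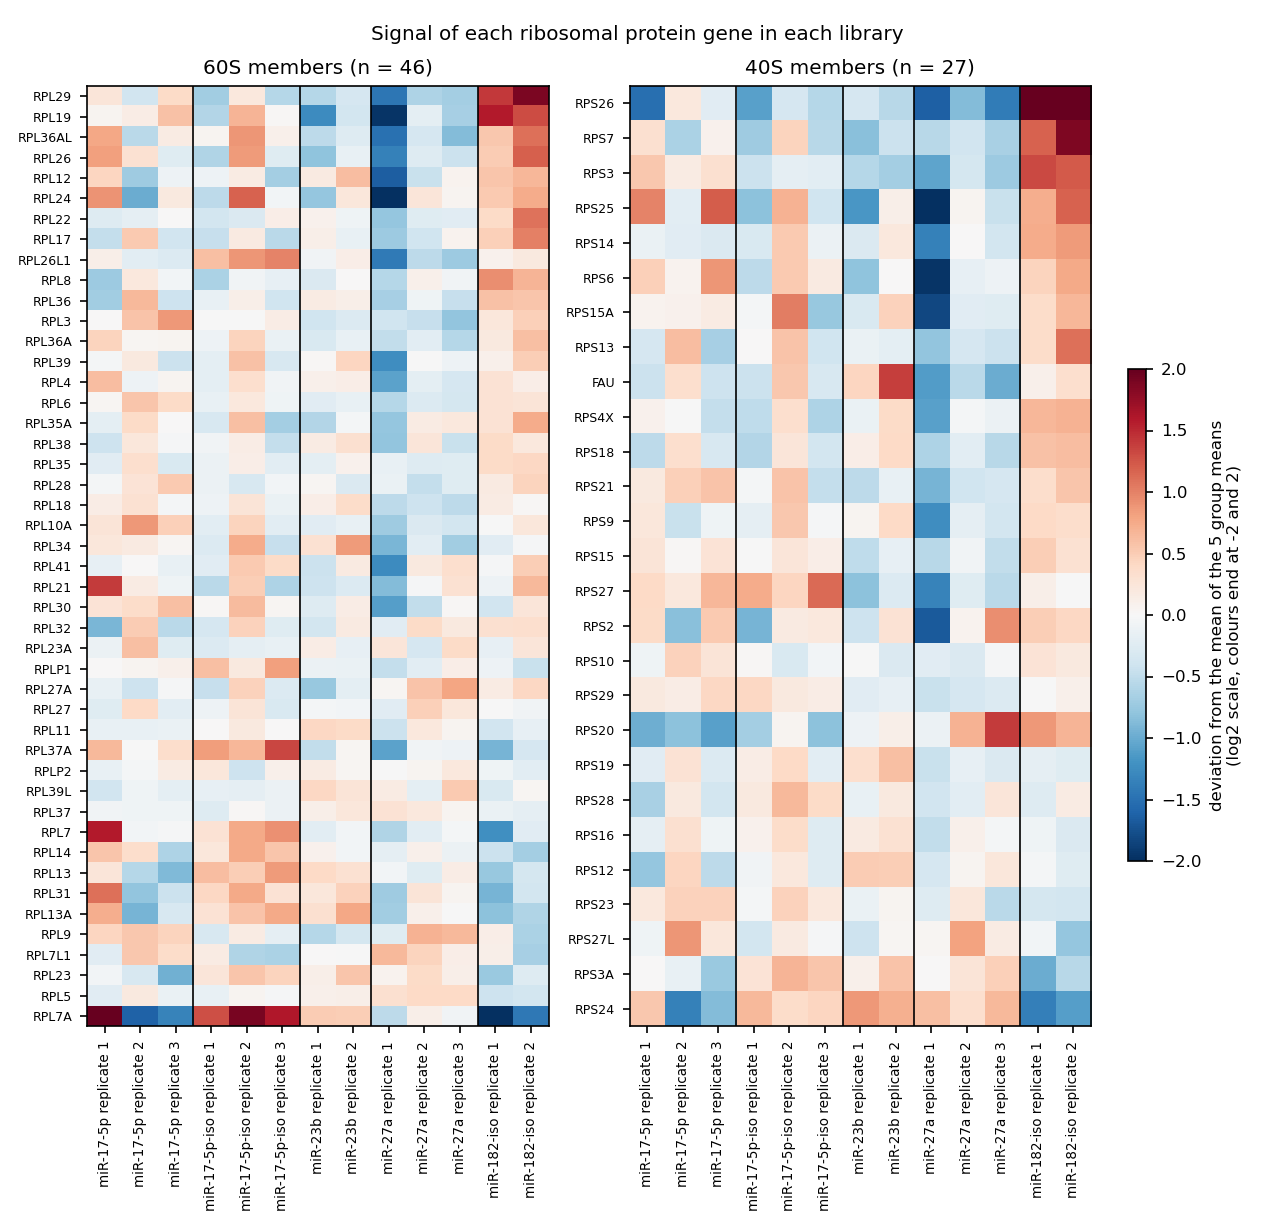
Deviation of the representative probe of each of the 46 60S (left) and 27 40S (right) members from the mean of the 5 group means, per library (columns); red is higher, blue lower, and colors end at −2 and 2 on the log2 scale. The miR-182-iso columns are darkest red for RPS26, RPS7, RPL29 and RPL19, and miR-27a replicate 1 is blue for most rows.

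Across all 5 groups at once, 28 of 73 members differed (17 60S and 11 40S, moderated F test), or 38.4%, against 45.7% of all genes. With brighter probes only, the share of genes was 59.6%. The range of group means had a median of 0.97 over the members and 0.68 over all genes. The range varied with signal strength. Among the 117 member probes, cut into 3 sets of 39 by mean signal, the median range was 1.15 in the dim set, 1.28 in the middle one and 0.79 in the bright one. All probes, cut at the same signal limits into sets of 10423, 1377 and 207, had 0.59, 1.10 and 1.02. RPLP2, of the stalk, ran from 14.34 to 14.99 over the 13 libraries. In all, 32 members (21 60S and 11 40S) were called in none of the 8 comparisons (5 with unrelated duplexes, the direct ones and the F test). The same was not counted over all genes, so this number has no background beside it.

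**Figure D4:**
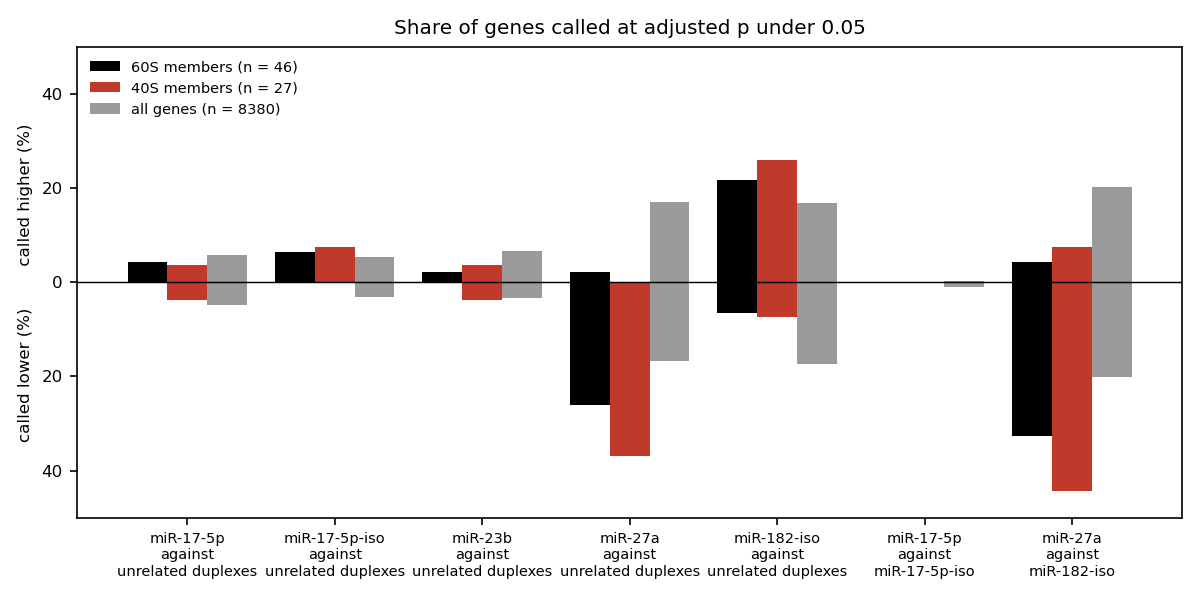
Share of genes called higher and lower (percent, vertical axis) in each comparison, for 60S members, 40S members and all genes. With miR-27a the members' share lies above that of all genes only for lower calls, and with miR-182-iso only for higher calls.

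In the miR-17-5p pull-downs 3 members were called higher (RPL10A, RPL3 and RPS29) and 1 lower (RPS20). Of all genes 5.81% were called higher and 4.9% lower (10.7% in all), against 5.48% of members in all. RPS20, of the 40S head, had 12.39, 12.55 and 12.29 with miR-17-5p, against 13.26 and 13.48 with miR-23b, 13.24, 14.05 and 14.76 with miR-27a and 14.24 and 14.04 with miR-182-iso. All 3 libraries lay below the 7 unrelated ones (−1.44 ± 0.29, adjusted p = 0.0134). With miR-17-5p-iso, left out of that comparator, it had 12.69, 13.42 and 12.55. RPL10A, the protein of the mobile L1 stalk by which tRNA leaves, had 13.32, 13.93 and 13.53 with miR-17-5p, against 12.35 to 13.29 in the unrelated libraries (0.71 ± 0.18, adjusted p = 0.0331). RPL3, near the peptidyl transferase center, overlapped its comparator (0.65 ± 0.17, adjusted p = 0.0343). RPS20 and RPS29 lost their calls without miR-17-5p replicate 3, and only 1 member was called without that library (4.42% of all genes).

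The miR-17-5p-iso pull-downs had 5 members called higher and 0 lower (unrelated duplexes as comparator), against 5.47% higher and 3.13% lower (8.59% in all) among all genes and 6.85% of members in all. RPL37A, a zinc finger protein of the 60S subunit, had 14.68, 14.50 and 15.19 with miR-17-5p-iso, against 13.35 and 13.89 with miR-23b, 12.78, 13.78 and 13.74 with miR-27a and 12.91 and 13.51 with miR-182-iso. All 3 libraries were above the 7 unrelated ones (1.37 ± 0.27, adjusted p = 0.0122). The same held for RPS27, a zinc finger protein of the 40S subunit, with 14.93, 14.63 and 15.34 against 12.87 to 14.32 (1.16 ± 0.24, adjusted p = 0.0154), for RPL26L1 (1.06 ± 0.18, adjusted p = 0.00594) and for RPLP1 (0.73 ± 0.16, adjusted p = 0.0181). RPS29, a zinc finger protein of the 40S head, rose by 0.42 ± 0.08 with miR-17-5p-iso (adjusted p = 0.0137) and by 0.42 ± 0.08 with miR-17-5p (adjusted p = 0.0132). Of the 5, RPL26L1 was called under every alternative that was run, and RPL37A and RPS27 lost the call without miR-17-5p-iso replicate 3.

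Between the paired forms of miR-17-5p, whose guides differ by the shift of 1 base, 0 members were called by limma. This compares with 0.37% of all genes called higher and 0.907% lower with miR-17-5p. At an unadjusted p under 0.05 there were 12 members (16.4%), and 14.2% of all genes. The smallest adjusted p among the members was 0.0752, for RPL26L1, at 10.28, 9.95 and 9.88 with miR-17-5p and 10.76, 11.03 and 11.15 with miR-17-5p-iso (−0.94, 95% interval −1.41 to −0.48). These values did not overlap. The data do not show that the forms act alike: of the 73 unadjusted 95% intervals, 43 lay within −1 to 1 and 30 reached beyond, and they ran 0.20 to 1.87 to either side of the estimate. Narrow intervals were those of RPL5 (−0.26 to 0.22) and RPLP2 (−0.33 to 0.37). Without miR-17-5p replicate 1, 6 of 73 members were called, against 2.97% of all genes.

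That library differed from its replicates in a few members, chosen here after their values were seen. RPL7A, a 60S protein, had 13.10, 9.08 and 9.37 with miR-17-5p, 11.99, 12.60 and 12.30 with miR-17-5p-iso, 11.21 and 11.19 with miR-23b, 10.18, 10.82 and 10.63 with miR-27a and 8.62 and 9.27 with miR-182-iso. Replicates 2 and 3 of miR-17-5p were as low as the miR-182-iso libraries and replicate 1 was the highest of all 13. RPS24 had its high value in the same replicate (above). RPL7A was called in none of the comparisons (adjusted p = 0.0991 across the 5 groups), with an SD of 2.24 in the miR-17-5p group.

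With miR-23b 2 members were called higher (RPL11 and FAU) and 1 lower (RPS3). Of all genes 6.67% were called higher and 3.25% lower (9.92% in all), against 4.11% of members in all. RPL11, the partner of RPL5 in the 5S particle, had 14.60 and 14.58 with miR-23b, against 13.76 to 14.39 in the other 11 libraries, and its 2 probes agreed (0.53 ± 0.14 and 0.56 ± 0.14, adjusted p = 0.0452 and 0.0377). FAU overlapped its comparator (1.17 ± 0.32, adjusted p = 0.0483), and its 2 miR-23b libraries, 12.35 and 13.29, lay far apart. RPS3 differed by −0.83 ± 0.16 (adjusted p = 0.0152) and by −0.29 (adjusted p = 0.352) without the miR-182-iso libraries. These calls rest on 2 libraries, and with either left out a single one remained in the group, too few to check the calls. With miR-27a, whose seed is nearly equal, RPL11 differed by −0.08 ± 0.12 and FAU by −1.22. Whether miR-23b and miR-27a differ from each other was not tested.

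The counts by place in the ribosome stand beside 16.9% of all genes called higher with miR-182-iso, 16.8% called lower with miR-27a and 20.2% called lower between these duplexes. The 8 proteins around the exit tunnel, through which the new chain leaves, had 4 members called higher with miR-182-iso (RPL17, RPL19, RPL22 and RPL35; median 0.72) and 2 called lower with miR-27a (RPL19 and RPL22; median −0.57). Between those duplexes 5 of the 8 were called lower with miR-27a (median −0.93). Of the 15 measured proteins of the 40S body and platform, 6 were called lower with miR-27a (median −0.74) and 4 higher and 2 lower with miR-182-iso (median 0.68). In the 40S head, 4 of 11 were called lower with miR-27a (median −0.39) and 3 of 11 higher with miR-182-iso (median 0.33). Without both miR-182-iso libraries, a setting added for these lists after seeing the data, the count called lower with miR-27a was 0 at the exit tunnel, 1 in the body and platform and 1 in the head, with medians of −0.37, −0.49 and −0.28 (7.61% of all genes were called lower). Without miR-182-iso replicate 2 the count called higher with miR-182-iso was 0, 2 and 1 in the same order (5.7% of all genes). Of the stalk that recruits elongation factors 3 proteins were measured. By the brightest probe of each gene, only RPLP1 was called, with miR-17-5p-iso, while RPLP2 had differences of −0.21 to 0.12 in the 5 comparisons. Other RPLP1 probes were also called higher with miR-17-5p (below), and 1 of them lower with miR-182-iso (−1.71, adjusted p = 0.00526).

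Some ribosomal proteins have a paralog, encoded by a gene of its own and read here by its own probes. RPL36A and RPL36AL were both called lower with miR-27a (−0.52 and −1.12) and higher with miR-182-iso. RPL26L1 was called with miR-17-5p-iso and with miR-27a, while RPL26 had 0.10 ± 0.37 and −0.86 ± 0.37 (adjusted p = 0.917 and 0.101); between miR-27a and miR-182-iso both were called lower, at −1.54 ± 0.49 for RPL26 and −1.03 ± 0.24 for RPL26L1. RPS27 was called with miR-17-5p-iso and miR-27a, whereas RPS27L had 0.02 ± 0.26 and 0.49 ± 0.25 (adjusted p = 0.974 and 0.17). RPL39 and RPL39L, and RPL7 and RPL7L1, were called in none of the comparisons by their brightest probe. Differences between paralogs were not tested.

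Different probes of a member often disagreed, and how often this held for other genes with several probes was not counted. Of the 34 members with several probes, all probes had the same sign in 23 to 26 of them in the 5 comparisons with unrelated duplexes. In 13 (RPL6, RPL7L1, RPL9, RPL13, RPL36, RPL37A, RPLP1, RPS3A, RPS15, RPS24, RPS26, RPS27 and RPS29) a called probe differed by over 1 log2 from another, and in 20 a probe other than the brightest had the wider range of group means. RPLP1 is one. The probe that represents it was 0.25 above unrelated duplexes with miR-17-5p (adjusted p = 0.36), but a second was at 12.24, 11.93 and 13.08 with miR-17-5p and 11.73, 12.31 and 12.87 with miR-17-5p-iso, against 10.19 and 11.12 with miR-23b, 9.64, 9.70 and 10.20 with miR-27a and 9.21 and 9.27 with miR-182-iso. This probe separated the miR-17-5p family from all 7 unrelated libraries, by 2.50 ± 0.31 with miR-17-5p (adjusted p = 0.00171) and 2.39 ± 0.31 with miR-17-5p-iso (adjusted p = 0.0015). Another RPLP1 probe rose by 1.47 ± 0.14 and 1.55 ± 0.14.

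One RPL9 probe differed by 1.42 ± 0.18 with miR-27a (adjusted p = 0.000864) and by −1.497 ± 0.21 with miR-182-iso (adjusted p = 0.000785), opposite to most members, while the other 2 RPL9 probes were not called in either. For RPL36, 2 probes were called in opposite directions between miR-27a and miR-182-iso (−0.97 and 0.59), the 1 gene of this kind. Several probes of RPL6 and RPS15 were called the same way at unequal size, for RPS15 0.59, 1.60 and 1.91 with miR-182-iso. Transcript forms or pseudogene copies that single probes may read were not tested.

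Ribosomal protein genes have many processed pseudogenes, and 9 probes carry pseudogene names. One of them, RPS26P11, singled out after its values were seen, had 14.60 and 14.35 with miR-182-iso, against 10.51 to 12.24 in the other 11 libraries, a difference of 3.03 ± 0.33 (adjusted p = 0.000259). This is the same direction as the RPS26 probes, and signal from the gene and its copy cannot be told apart here.

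**Figure D5:**
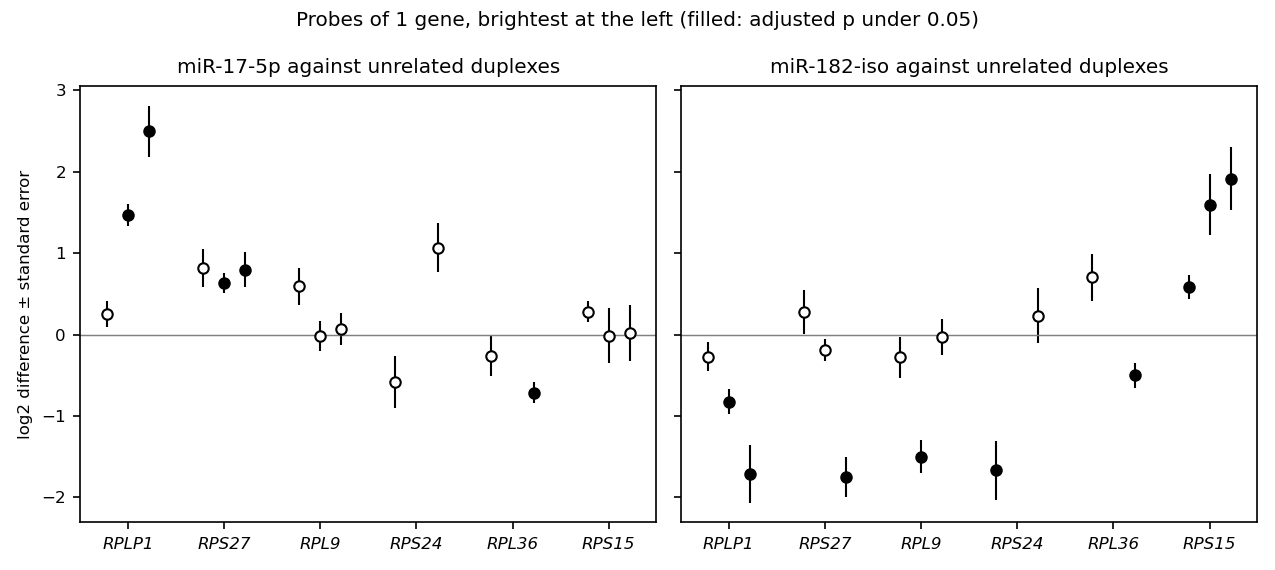
Difference of each probe from unrelated duplexes (log2 scale, with standard errors) for 6 genes with several probes, in the miR-17-5p and miR-182-iso comparisons. RPLP1 has probes at 0.25, 1.47 and 2.50 with miR-17-5p, and RPS24 probes lie on both sides of 0 with miR-182-iso.

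The TOP motif was looked for at the annotated start sites (RefSeq, GRCh38.p14) as a C followed by 4 bases that are each C or T, on the transcribed strand only. It was present in 41 of the 62 members with a start-site sequence (66.1%), in 63.2% of 60S and 70.8% of 40S members, against 5.36% of the other measured genes. The median difference was close in members with and without it. With miR-27a, 12 of 41 with the motif and 10 of 21 without were called lower, and the median difference was −0.48 in both. With miR-182-iso, 8 of 41 and 8 of 21 were called higher, with medians of 0.36 and 0.31. Of all genes 16.8% were called lower with miR-27a and 16.9% higher with miR-182-iso. Whether the shares differ between members with and without the motif was not tested. The 11 members with no start-site sequence had medians of 0.11 and 0.01. A match says only that these letters stand at the annotated start.

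Other mRNAs known for a TOP start, mostly translation factors, had medians of the same sign in both comparisons. Of 19 measured, 8 were called lower and 1 higher with miR-27a (median −0.44), and 6 higher and 2 lower with miR-182-iso (median 0.26). Of all genes 16.8% were called lower and 17.1% higher with miR-27a, and 16.9% higher and 17.3% lower with miR-182-iso. Without both miR-182-iso libraries 4 were called lower with miR-27a (median −0.25), against 7.61% of all genes. VIM, an intermediate filament protein, had −1.51 ± 0.41 with miR-27a (adjusted p = 0.0216) and 1.62 ± 0.47 with miR-182-iso (adjusted p = 0.0258), and EEF1D, an exchange factor for the elongation factor eEF1A, had −1.16 ± 0.29 with miR-27a (adjusted p = 0.0155). EIF3H, a subunit of initiation factor eIF3, rose by 1.30 ± 0.18 with miR-182-iso (adjusted p = 0.000927). With the miR-17-5p family the list had 3 called higher and 1 lower for each form, against 5.81% and 4.9% of all genes with miR-17-5p and 5.47% and 3.13% with miR-17-5p-iso. EEF1B2, a second eEF1A exchange factor, had 13.90, 13.96 and 14.19 with miR-17-5p and 14.003, 14.009 and 14.205 with miR-17-5p-iso, against 12.78 to 13.21 in the 7 unrelated libraries. Neither form overlapped them (1.05 ± 0.09 and 1.11 ± 0.09, adjusted p = 0.000287 and 0.000165). NAP1L1, a histone chaperone, rose by 1.23 ± 0.23 with miR-17-5p and 1.29 ± 0.23 with miR-17-5p-iso, and differed by −1.20 ± 0.26 with miR-23b (adjusted p = 0.00979, 0.0077 and 0.0229).

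Ribosome assembly factors, which act in the nucleolus and are not part of the finished ribosome, also had medians of these signs. Of 50 measured, 20 were called lower and 6 higher with miR-27a (median −0.30), and 23 higher and 5 lower with miR-182-iso (median 0.40), beside the same shares of all genes as for the TOP mRNAs (16.8% lower with miR-27a, 16.9% higher with miR-182-iso). Without both miR-182-iso libraries 7 were called lower with miR-27a (median −0.11), against 7.61% of all genes. Without miR-182-iso replicate 2 alone 9 were called higher with miR-182-iso, against 5.7% of all genes. BOP1, needed for 60S rRNA processing, fell by 1.24 ± 0.15 with miR-27a (adjusted p = 0.000746) and NOC3L was higher by 1.26 ± 0.20 (adjusted p = 0.00223). With miR-182-iso the rRNA methyltransferase NOP2 rose by 1.87 ± 0.27 (adjusted p = 0.00103) and NHP2, of the H/ACA particles, by 1.60 ± 0.20 (adjusted p = 0.000502). With miR-17-5p 7 were called higher and 3 lower, against 5.81% and 4.9% of all genes. IMP3, of the U3 particle, rose by 1.37 ± 0.19 (adjusted p = 0.00252) and EIF6, which keeps 60S subunits from joining, by 1.16 ± 0.12 (adjusted p = 0.000888). EIF6 was 0.72 below unrelated duplexes with miR-23b (adjusted p = 0.0154). Its mean there was 10.17, against 9.94 with miR-27a, 11.21 with miR-182-iso, 11.60 with miR-17-5p and 11.48 with miR-17-5p-iso. The comparator thus includes the high miR-17-5p family.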

How the data were processed

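Captured RNA of 13 pull-down libraries was measured on Illumina HT-12 arrays. The authors adjusted the background, applied the variance-stabilizing transformation and robust spline normalization in lumi 2.2.1, and kept probes with a detection p below 0.01 in all mock-transfected controls. The deposited log2 values of 12007 probes were used as given. In a second table of non-normalized signals, 26 columns match no sample name and were not used, so the planned fit on newly normalized signals was replaced by the same fit on the deposited values. Probe symbols came from the platform annotation (10444 probes with 1 symbol, 1 with several, 1562 with none) and 10442 probes were matched to RefSeq by gene ID.

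limma 3.58.1 (R 4.3.3) was fitted to all probes with the 5 groups as terms, and Benjamini-Hochberg adjustment covered all 12007 probes. Tests are two-sided. Tables and plots were made in Python 3.11.15 (numpy 2.4.6, pandas 2.3.3, matplotlib 3.10.9), and the fit was tested on simulated data. Counts of genes use the probe with the highest mean. Named members are, per comparison, the called ones with the 6 largest differences in each direction, the stalk and 5S proteins, FAU, paralog pairs and genes whose probes disagree by over 1 log2; of the other lists, the 2 largest called. Members and lists were chosen with earlier results of these data known. Guide strands were read from the study's list of duplexes. Alternatives were a replicate block, all other pull-downs as comparator, quantile normalization, brighter probes only (mean at or above the median probe's), the mean of a gene's probes, no miR-182-iso libraries, and each library left out. The number of arrays limits the precision.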

Additional observations from a re-analysis of the deposited data

How the results depend on the processing

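Leaving out 1 or 2 libraries moved counts of called members by a factor over 1.5 at some settings. With 1 library left out, a count stayed within that factor at 6 of 13 settings for miR-17-5p and for miR-23b. The F test count did so at 12 of 13, and the other counts lay between. The share of all genes called moved at many of these settings too. Without both miR-182-iso libraries the count with miR-27a was 4 in place of 23, with miR-23b 1 in place of 3, with miR-17-5p 11 in place of 4, and across the 5 groups 11 in place of 28. Of all genes 15.4% were then called in place of 33.9% with miR-27a, and 5.29% in place of 9.92% with miR-23b. With miR-17-5p the share was 17.8% in place of 10.7%, and in the F test 23.5% in place of 45.7%. Using the mean of a gene's probes gave 8 for miR-17-5p, with 11.9% of all genes called. With brighter probes only, miR-17-5p-iso had 10 in place of 5, and the contrast between the forms of miR-17-5p had 2 in place of 0. Of all genes with such probes 12.5% and 2.23% were then called, in the same order. Leaving out 1 library at a time gave 1 to 8 for miR-17-5p (lowest without its replicate 3, highest without its replicate 1), 2 to 9 for miR-17-5p-iso (lowest without its replicate 3), 0 to 4 for miR-23b (0 without either of its replicates) and 11 to 26 for miR-27a (11 without its replicate 1, without miR-23b replicate 2 or without miR-182-iso replicate 2). It gave 5 to 25 for miR-182-iso (5 without its replicate 2, 7 without its replicate 1, 13 and 14 without miR-23b replicates 1 and 2), 0 to 6 between the forms of miR-17-5p (6 without miR-17-5p replicate 1), 10 to 36 for miR-27a against miR-182-iso and 16 to 34 across the 5 groups. Of all genes 4.42% were called with miR-17-5p without its replicate 3 and 7.41% without its replicate 1. With miR-17-5p-iso it was 3.58% without its replicate 3, and with miR-27a 20.4% without its replicate 1. Without miR-17-5p replicate 1 it was 9.9% for miR-17-5p-iso, 35.5% for miR-182-iso, 42.2% for miR-27a against miR-182-iso and 46.7% across the 5 groups. Fits that left 1 library in a group called fewer of all genes in every comparison. Replicate numbers were not treated as pairs, since nothing says what they share and only 13 of 23 same-numbered pairs of libraries had deviations from their group means that correlated over 0.1 (median 0.14, −0.33 to 0.63, against −0.08 for different numbers). Among the 4 groups other than miR-17-5p, 12 of 13 such pairs were over 0.1 and 13 of 13 above 0, a hint from the data that these numbers may share something. The pairs are not separate observations, since deviations from the mean of a group of 2 libraries mirror each other. With the replicate number as a block, counts were 5 for miR-17-5p, 6 for miR-17-5p-iso, 4 for miR-23b, 25 for miR-27a, 23 for miR-182-iso, 0 between the forms of miR-17-5p, 36 for miR-27a against miR-182-iso and 35 across the 5 groups. Of all genes 10.4%, 7.88%, 10.5%, 34.8%, 35.8%, 1.17%, 41.8% and 46% were then called, in the same order. Of 47 calls of named members, 13 held under every alternative run for them; of the 849 values this gave, 708 kept the call, 141 lost it and 0 changed direction. Dim probes lie on the compressed part of the scale, so their differences are understated. Where a cause is not shown by the setting itself, the cause was not tested.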
